A study of Homo sapiens with 4 samples.

Results

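The 6 genes of the CCN family (CYR61, CTGF, NOV, WISP1, WISP2 and WISP3, the older names of CCN1 to CCN6) and the YAP/TAZ target genes ANKRD1 and AMOTL2 were followed in A549, a widely used human cell line from a lung adenocarcinoma. They were taken by gene symbol, and all 8 were found among the 26255 symbols of the deposited table. There are 4 libraries, 1 per group. The solid tumor and the acinar tumor are laser-microdissected areas of A549 xenografts in immunodeficient mice. In pathology, solid names growth in sheets and acinar growth around gland-like spaces. Whether both areas came from the same mouse is not stated in the labels. The single culture and the mix culture are GFP-labelled A549 cells sorted from 3D colonies, the first grown alone and the second read here as the one grown with cancer-associated fibroblasts (CAFs). All 4 come from a single cell line, and with 1 library per group the differences below are between single libraries, without replicates and without p-values.

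CCN proteins are secreted into the matrix around a cell, where they bind integrins, proteoglycans and growth factors. CYR61 and CTGF are the best-known readouts of YAP and TAZ, coactivators that the Hippo kinases hold out of the nucleus and that bind DNA through the TEAD factors. Both genes also respond to TGF-β, to serum and to tension on the cytoskeleton, so a change in them does not name a single pathway. ANKRD1 encodes a nuclear ankyrin repeat protein first described in heart muscle. AMOTL2 encodes an angiomotin, a junction scaffold that binds YAP and holds it back, and is itself a YAP target.

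The promoter sequences of the members show where the TEAD core motif GGAATG lies. It was searched on both strands in the 250 bases before each transcript start in RefSeq's table (build GRCh38.p14, not the hg19 of the expression files). Starts were listed for 4 of the 8 members: CTGF, ANKRD1, WISP3 and AMOTL2, the last with 2 starts. CYR61, NOV, WISP1 and WISP2 are named only. CTGF held 3 matches, ANKRD1 2, WISP3 1 and AMOTL2 1 (before the downstream of its starts). Of all 35116 windows of this length, 11.9% held 1 match or more, 0.94% held 2 or more and 0.0826% held 3 or more. The stretch of the CTGF promoter with its 3 matches (chr6:131951423-131951572, minus strand, bases -200 to -51 from the start) is shown because CTGF was past 2-fold higher in both comparisons. The 30 bases around the matches of the other members are given for comparison, read so that the motif runs forward. They lie at chr10:90921290-90921319 and chr10:90921198-90921227 (both minus strand), chr3:134374499-134374528 (plus strand, the strand opposite to the gene) and chr6:112053964-112053993 (plus strand). Capitals mark the TEAD motif.
CTGF: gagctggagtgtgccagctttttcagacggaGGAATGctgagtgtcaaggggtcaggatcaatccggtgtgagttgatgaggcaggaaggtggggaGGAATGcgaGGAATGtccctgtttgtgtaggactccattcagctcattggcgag
ANKRD1, upstream match: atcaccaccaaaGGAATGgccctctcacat
ANKRD1, downstream match: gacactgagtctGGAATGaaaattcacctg
AMOTL2: gctgctatgccaGGAATGtgagagtttcag
WISP3: agggcaaggaagGGAATGacgtgggacccc

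In CTGF the first bases of the matches lay at -169, -104 and -95 from the start, with 3 bases between the last 2 of them. A SMAD motif, CAGAC, began at -177. That motif was common, in 38% of all windows. ANKRD1 held it once on each strand, the reverse match sharing 1 base with the TEAD match at -128. Among the 4 members with a listed start, ANKRD1 was also the only one with an AP-1 motif (TGANTCA, in 6.57% of all windows). None of the 5 windows held a CArG box, the SRF motif (1.16% of all windows). A match is a run of letters and not a measured binding site.

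**Figure D1:**
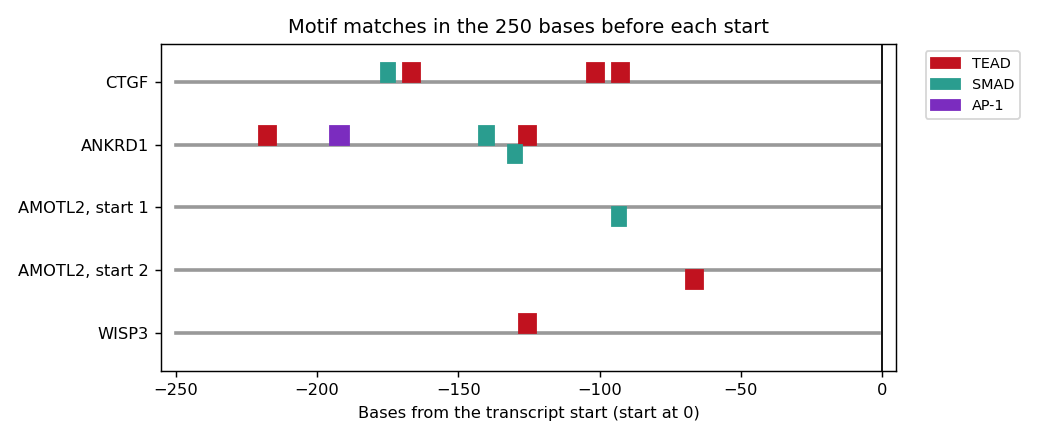
Matches to 3 motifs (colours) in the 250 bases before the RefSeq starts of 4 members, plotted by distance from the start in bases; blocks above a line match the gene's strand and blocks below it the opposite strand. CTGF has 3 TEAD matches and ANKRD1 has 2, while AMOTL2 (start 2) and WISP3 have 1 each.

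The deposited values had totals of like size, from 8713717 in the single culture to 9195392 in the acinar tumor. Levels are given as scaled counts, these values divided by 1 constant for all libraries. They are not divided by gene length, so they compare libraries and not genes. The estimated depth was 7270000 fragments for the solid and 6630000 for the acinar tumor, and 10970000 for the single and 12180000 for the mix colonies. Every value of the 8 members came out as a whole number of fragments (within 0.05 of a fragment). Brackets after a fold hold its exact 95% interval from the fragment counts, which covers counting error only. A comparison counts a gene as measured when either of its libraries reaches 1 scaled count, and as past 2-fold on the scale log2((value + 1)/(value + 1)), which understates differences of low genes. The libraries are of bulk RNA, so fewer cells making a transcript and less transcript per cell cannot be told apart.

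CTGF was at 27.5 scaled counts in the solid and 101 in the acinar tumor, and at 12.2 in the single and 26.5 in the mix colonies. It was the highest of the 4 in the acinar tumor and lowest in the colonies grown alone. Its level in the solid tumor and in the mix culture did not differ beyond counting error (1.04-fold, 0.867 to 1.24). The acinar tumor stood 3.68-fold above the solid tumor (3.13 to 4.34) and 8.33-fold above the single culture (6.92 to 10.1).

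CYR61 was at 9.23 scaled counts in the solid and 18.6 in the acinar tumor, and at 16.1 in the single and 38.3 in the mix colonies. Its order differed from that of CTGF: the mix culture was highest, 2.06-fold above the acinar tumor (1.68 to 2.54), and the solid tumor lowest. The acinar tumor and the single culture did not differ beyond counting error (1.16-fold, 0.911 to 1.46). Within each pair of libraries CYR61 and CTGF went the same way. CYR61 was 2.02-fold higher in the acinar than in the solid tumor (1.48 to 2.77) and 2.38-fold higher in the mix than in the single culture (2 to 2.84). In the tumors its log2 ratio of 0.94 fell just short of the 2-fold limit once the pseudocount was added.

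WISP2 encodes the CCN protein that lacks the carboxy-terminal cystine knot of its relatives. It was at 73.6 scaled counts in the solid and 93.0 in the acinar tumor, and at 15.3 in the single and 15.1 in the mix colonies. Both tumors stood far above both cultures, by 4.81-fold to 6.15-fold over the 4 pairings of a tumor with a culture. The cultures did not differ from each other beyond counting error (mix over single 0.99-fold, 0.801 to 1.22), and the acinar tumor was 1.26-fold above the solid one (1.12 to 1.42).

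WISP1, a gene named for its induction by Wnt signaling and known in stromal fibroblasts, had the opposite pattern. It had 0 fragments in either tumor, 24 in the single colonies and 134 in the mix colonies (2.13 and 10.8 scaled counts). A count of 0 allows up to 3 fragments, or 0.420 scaled counts in the solid and 0.465 in the acinar tumor. With the tumors set at that floor and the culture counts taken as observed, WISP1 was at least 5.08-fold higher in the single culture than in the solid tumor and at least 23.2-fold higher in the mix culture than in the acinar tumor. The exact 95% lower limits of these folds, which also take in the counting error of the culture values, were 3.83 and 18.6. Between the cultures it was 5.06-fold higher in the mix (3.26 to 8.17), the highest ratio of any member in that comparison.

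Since WISP1 is also a fibroblast gene, the 12 fibroblast markers were read beside it. Their summed level was 142 scaled counts without CAFs and 140 with them, most of it SPARC (118 and 107). DCN, FAP and POSTN had 0 fragments in the mix culture, LUM had 1 and COL1A2 had 2. COL1A1 was at 19.3 scaled counts in the colonies grown alone and 29.5 in the mix, THY1 at 1.33 and 2.01, and PDGFRA at 1.96 and 1.13. Mix over single, COL1A1 was 1.53-fold (1.29 to 1.82) and SPARC 0.901-fold (0.835 to 0.973). The intervals of THY1 and PDGFRA included 1. WISP1 itself had 24 fragments in the colonies read here as grown without CAFs. The source of its fragments in the mix culture was not tested. The part of any CAF RNA in that value was not tested beyond these marker levels.

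AMOTL2 varied least among the members above 10 scaled counts. It was at 40.1 scaled counts in the solid and 45.9 in the acinar tumor, and at 26.6 in the single and 35.9 in the mix colonies. The tumors did not differ beyond counting error (acinar over solid 1.14-fold, 0.969 to 1.35), and neither did the solid tumor and the mix culture (1.12-fold, 0.96 to 1.30). The mix culture was 1.35-fold above the single culture (1.16 to 1.57), well short of 2-fold.

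ANKRD1 was low throughout, with 10 fragments in the solid and 6 in the acinar tumor, and 1 in each culture (1.40, 0.93, 0.0889 and 0.0805 scaled counts). Acinar and solid tumor did not differ beyond counting error (acinar over solid 0.665-fold, 0.199 to 2.02). The solid tumor was 15.7-fold above the single culture, with an interval of 2.24 to 683. ANKRD1, a textbook YAP target with 2 TEAD motifs, was not past 2-fold in the tumors and was too low to count as measured in the cultures. With so few fragments a moderate difference was not detectable at this depth. Its relative ANKRD2 was at 0.559 scaled counts or less, and the 7 muscle markers together at 0.420 or less, in every library.

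NOV, often an antagonist of CTGF in cell culture, was at 2.38 scaled counts in the solid and 1.86 in the acinar tumor, and at 1.33 in the single and 1.77 in the mix colonies. These are 12 to 22 fragments, and no pair of neighbours in that order differed beyond counting error. WISP3 had 3 fragments in the mix culture and 0 in the other 3 libraries, so no difference could be read. In GENCODE's release 29, WISP3 overlaps TUBE1 on the other strand, and CTGF, NOV and WISP2 overlap antisense RNAs. No source used here states the strand setting of the counting, so reads of such partners cannot be told apart from those of the gene.

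**Figure D2:**
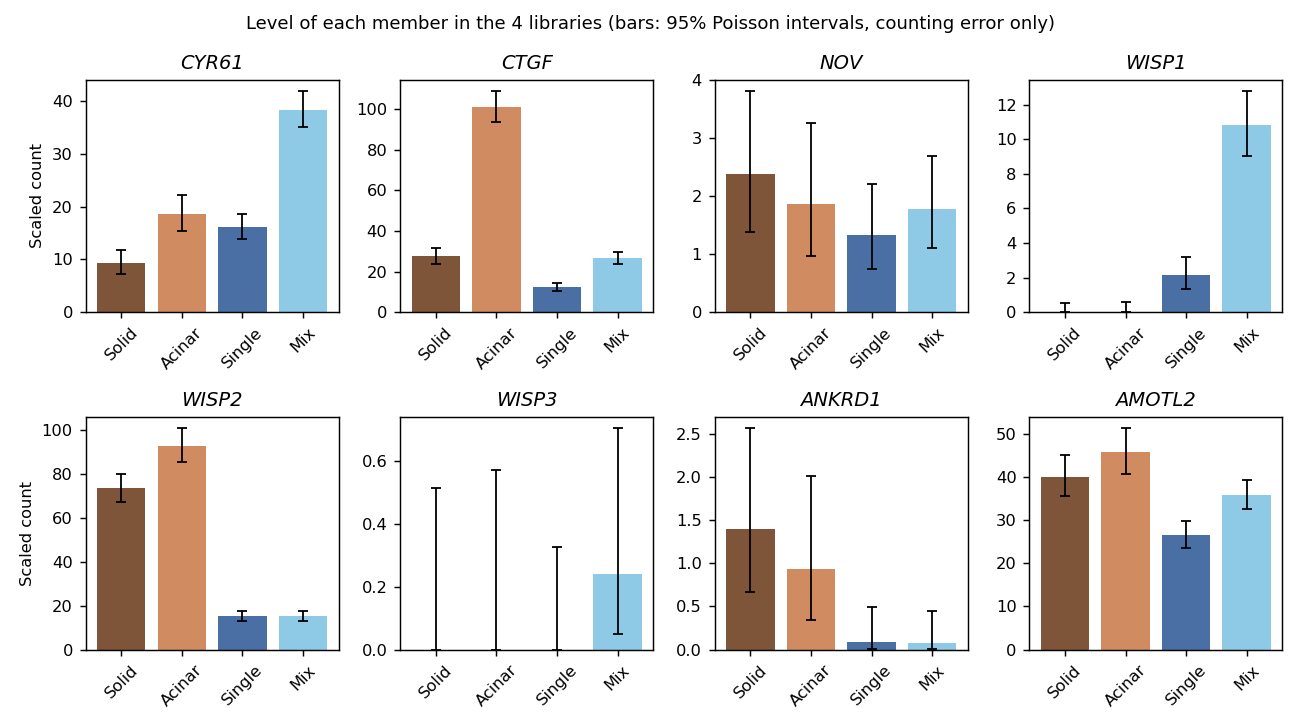
Scaled counts of the 8 members in the solid and acinar tumors and the single and mix cultures, 1 bar per library, each panel with its own axis from 0; error bars are exact 95% Poisson intervals on the fragments and cover counting error only. CTGF peaks in the acinar tumor at 101, CYR61 in the mix culture at 38.3, WISP2 is high in both tumors and WISP1 is seen only in the cultures.

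The first comparison the design implies sets acinar against solid tumor, in a study whose title links TGF-β signaling from CAFs to tumor histology. Of the 8 members, 6 were measured there, and 1 of them, CTGF, was past 2-fold higher, where 1.98% of all 13979 measured genes were. None was past 2-fold lower, against 2.55% of all genes. The median log2 ratio of the measured members was 0.26, beside 0.01 over all genes. The intervals of CTGF, CYR61 and WISP2 lay above 1, and those of NOV, ANKRD1 and AMOTL2 included 1. Members and lists were chosen with earlier results of these data known. Their counts beside those of all genes, here and below, are therefore descriptions and not independent support.

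The second comparison, mix against single culture, asks what growth with CAFs does to the tumor cells. Of 6 measured members, WISP1, CYR61 and CTGF were past 2-fold higher, against 0.682% of all 13485 measured genes. None was past 2-fold lower, against 1.74%. With a pseudocount of 5 the log2 ratio of CTGF was 0.87, and it was no longer past 2-fold. The members' median was 0.74, beside 0.01 over all genes. AMOTL2 had an interval above 1 but a ratio under 2-fold, and NOV and WISP2 had intervals that included 1. The 2 comparisons share no library.

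**Figure D3:**
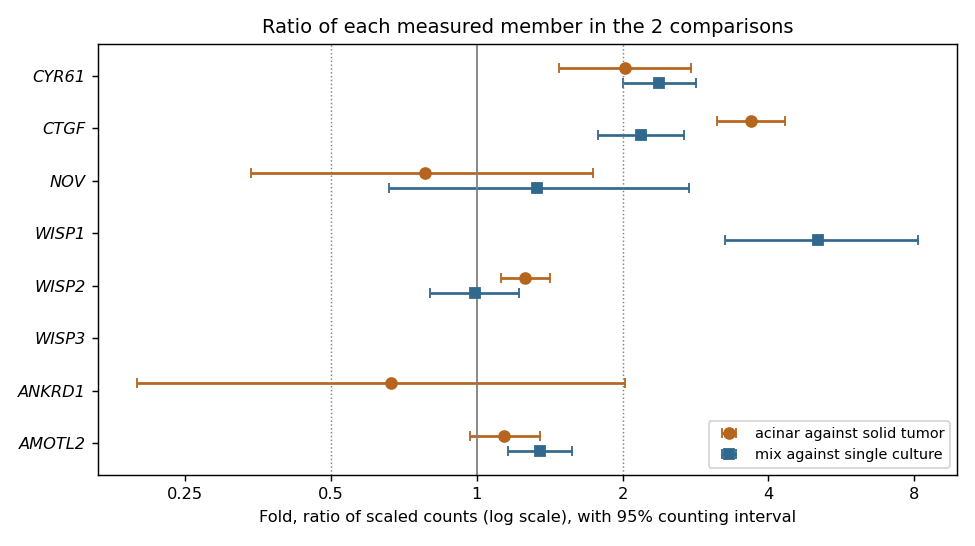
Ratio of scaled counts for each measured member (log axis), acinar over solid tumor as circles and mix over single culture as squares, with exact 95% intervals from fragment counts; dotted lines mark 2-fold. CTGF and CYR61 lie above 1 in both comparisons, WISP1 has a value in the cultures only, at 5.06-fold, and WISP3 has none.

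Across the settings, WISP2 was the only member with both tumors past 2-fold above both cultures, a pattern that 9.67% of 14561 genes had. WISP1 was the only member with both cultures past 2-fold above both tumors, a pattern of 8.22% of genes, and it lost that call with a pseudocount of 5. These settings differ in growth, in host tissue and in how the cells were taken (microdissection against sorting), and these cannot be told apart. The summed level of 6 epithelial markers, mostly KRT8, KRT18 and KRT7, also differed between the settings: it came to 10238 and 11993 scaled counts in the solid and acinar tumors and to 4715 and 5251 in the single and mix cultures. Of the 6, KRT19, KRT7 and EPCAM had both tumors past 2-fold above both cultures, while CDH1 was at 199 and 204 in the tumors and 201 and 120 in the cultures.

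How much each gene gave to the family's fragments does not depend on scaling between libraries. The 6 CCN genes together had 806 fragments in the solid and 1386 in the acinar tumor, and 529 in the single and 1152 in the mix colonies. In scaled counts the family total was 1.91-fold higher in the acinar than in the solid tumor (1.75 to 2.08) and 1.97-fold higher in the mix than in the single culture (1.78 to 2.19). The make-up of these totals differed between the libraries.

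CTGF made up 24.4% of CCN fragments in the solid tumor (exact binomial 95% interval 21.5 to 27.6) and 47.2% in the acinar tumor (44.5 to 49.9). In the cultures its share was 25.9% in the single (22.2 to 29.9) and 28.6% in the mix (26 to 31.3). The intervals of the tumors lay apart and those of the cultures overlapped. WISP2 held 65.3% in the solid (61.9 to 68.5) and 43.3% in the acinar tumor (40.7 to 45.9). Its share was 32.5% in the single (28.5 to 36.7) and 16.3% in the mix colonies (14.2 to 18.6). The level of WISP2 in scaled counts did not fall with its share. Acinar over solid tumor it was 1.26-fold (1.12 to 1.42), and mix over single culture 0.99-fold (0.801 to 1.22). CYR61 held 8.19% and 8.66% of CCN fragments in the solid and acinar tumors but 34.2% and 41.3% in the single and mix cultures. WISP1 made up 4.54% (2.93 to 6.68) of the family in the single and 11.6% (9.84 to 13.6) in the mix culture.

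**Figure D4:**
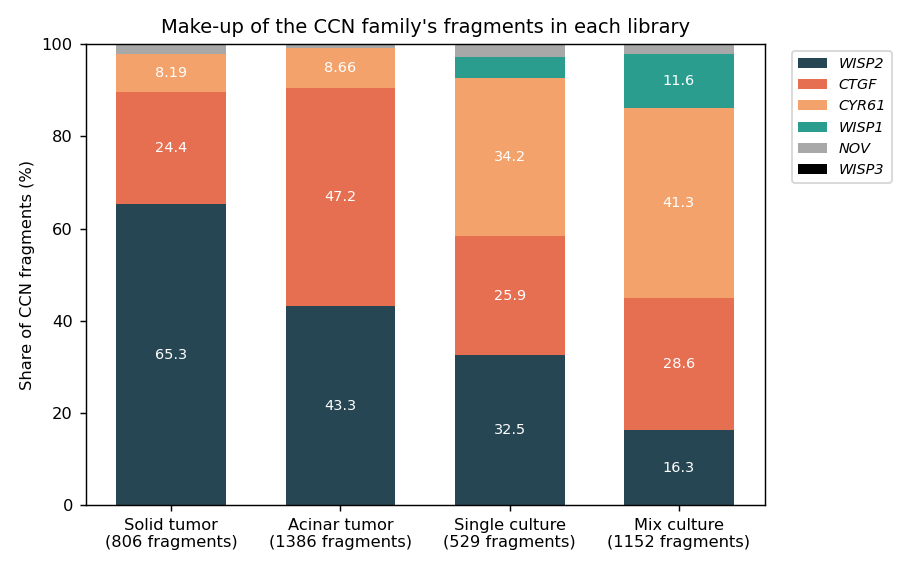
Share of each CCN gene in the family's fragments (percent, stacked to 100) in the 4 libraries, with the number of CCN fragments under each bar and shares above 5% printed. WISP2 and CTGF fill most of both tumors, and CYR61 holds 34.2% and 41.3% of the cultures.

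Compared between genes per kilobase of exon (GENCODE release 29, not necessarily the annotation the counts were made with), WISP2 was the most abundant CCN transcript in the solid tumor, at 40.6 scaled counts per kilobase against 11.8 for CTGF and 4.03 for CYR61. In the acinar tumor CTGF, at 43.4 per kilobase, came close to WISP2, at 51.3. In the single culture WISP2, CYR61 and CTGF lay at 8.44, 7.02 and 5.21 per kilobase. In the mix culture CYR61 led at 16.7 per kilobase, ahead of CTGF at 11.3 and WISP2 at 8.35. WISP1, whose exons are the longest of the family, was at 2.08 per kilobase there.

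The ratio of CTGF to CYR61 fragments within a library shows how far these sister genes moved together. In the solid tumor it was 2.98 (2.25 to 4.01) and in the acinar tumor 5.45 (4.48 to 6.68). In the single culture it was 0.757 (0.602 to 0.95) and in the mix 0.691 (0.599 to 0.797). CTGF thus outnumbered CYR61 in both tumors and was outnumbered by it in both cultures. From solid to acinar tumor the ratio changed 1.83-fold, with an exact conditional interval of 1.28 to 2.60. From single to mix culture it changed 0.913-fold, with an interval of 0.696 to 1.20 that included 1.

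Measured against AMOTL2 in the same library, CTGF was 3.22 times as abundant in the acinar as in the solid tumor (2.55 to 4.07) and 1.61 times in the mix as in the single culture (1.25 to 2.08). The same measure for CYR61 was 1.76 in both comparisons (1.24 to 2.52 and 1.40 to 2.22). AMOTL2 and the CCN pair, all YAP targets, therefore did not change in proportion in either comparison.

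The proteins that carry the Hippo signal changed less than CTGF at the RNA level. YAP1, the coactivator, was at 68.7 scaled counts in the solid and 78.5 in the acinar tumor, and at 125 in the single and 111 in the mix colonies. WWTR1, which encodes TAZ, was at 138, 172, 381 and 339 scaled counts in the same order. Both were higher in the cultures than in the tumors, and both were slightly lower in the mix than in the single culture (0.886-fold, 0.822 to 0.955, and 0.890-fold, 0.852 to 0.929). YAP and TAZ are controlled chiefly by phosphorylation and location, which RNA levels do not report.

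Among the TEAD genes, which encode the DNA-binding partners, TEAD1 was at 131, 149, 317 and 319 scaled counts in the solid tumor, acinar tumor, single culture and mix culture. TEAD2 was 1.46-fold higher in the acinar than in the solid tumor (1.23 to 1.74) and TEAD4 1.41-fold (1.01 to 1.97). In the mix over the single culture TEAD4 was 1.40-fold higher (1.18 to 1.67), while the intervals of TEAD1, TEAD2 and TEAD3 included 1. The cofactor gene VGLL3 was 1.97-fold higher in the acinar tumor (1.38 to 2.85) and 1.68-fold higher in the mix culture (1.21 to 2.33). VGLL1 and VGLL2 had 0 fragments in every library. Of the 8 measured genes of this list, all 8 had a log2 ratio above 0 in the tumors and 3 in the cultures. Above 0 were 7098 of all 13979 genes in the tumors and 7011 of 13485 in the cultures. None of the 8 was past 2-fold in either comparison, with medians of 0.36 and -0.11. Of all genes, 1.98% were higher and 2.55% lower in the tumors, and 0.682% and 1.74% in the cultures.

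Upstream Hippo genes were mostly within 2-fold. Of 18 measured in the tumors, 2 were past 2-fold higher and none lower (median 0.18), where 1.98% and 2.55% of all genes were. The 2 were AMOT, the founding angiomotin, and FRMD6, a FERM protein that activates the kinases. AMOT was low, at 3.10 against 0.699 scaled counts, or 20 against 5 fragments (4.43-fold, 1.62 to 15.1). FRMD6 was at 17.4 against 7.83 scaled counts (2.22-fold, 1.6 to 3.11). In the cultures 17 were measured and none was past 2-fold (median 0.05), where 0.682% of all genes were higher and 1.74% lower. The kinase genes LATS1 and LATS2 were at 21.9 and 31.5 scaled counts in the acinar against 16.9 and 26.2 in the solid tumor.

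Other published YAP/TAZ target genes were mostly within 2-fold. Of 17 measured in the tumors 1 was past 2-fold higher and 1 lower (median 0.14), where 1.98% and 2.55% of all genes were. Of 18 in the cultures none was past 2-fold higher and 2 were lower (median 0.11), where 0.682% and 1.74% of all genes were. A log2 ratio above 0 was found for 12 of the 17 in the tumors, as for 7098 of all 13979 genes. In the cultures 12 of the 18 were above 0, as were 7011 of all 13485 genes. FOXF2, a forkhead factor, was 2.59-fold higher in the acinar tumor (1.73 to 3.94). IGFBP3, a secreted carrier of insulin-like growth factors, was 2.96-fold lower there, at 907 against 2686 scaled counts. In the mix culture the matrix gene CCDC80 was at 22.4 against 50.4 scaled counts and the RNA-binding protein gene RBMS3 at 1.29 against 3.91. The receptor gene AXL and the ecto-enzyme gene NT5E, both frequently used YAP readouts, had log2 ratios of -0.09 in the tumors and 0.35 and 0.49 in the cultures.

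The list of SRF, its MRTF coactivators (MKL1 and MKL2) and their targets covers a factor that answers to actin and can also drive CYR61 and CTGF. Of 14 measured in the tumors, 13 had a log2 ratio above 0, as did 7098 of all 13979 genes. Past 2-fold higher were 3 of the 14, against 1.98% of all genes, and none was lower (median 0.60). SRF, MKL1 and MKL2 themselves had log2 ratios of 0.26, 0.30 and 0.13. TAGLN was 5.39-fold higher (4.09 to 7.18), the tropomyosin gene TPM1 2.69-fold (2.55 to 2.85), at 658 against 244 scaled counts, and the myosin light chain gene MYL9 6.65-fold (1.94 to 35.3). In the cultures, where CYR61 and CTGF were also higher, 10 of 13 had a log2 ratio above 0 and 3 below (median 0.16). Above 0 were 7011 of all 13485 genes. None of the 13 was past 2-fold, where 0.682% of all genes were higher and 1.74% lower. TPM1 was 1.40-fold higher in the mix (1.31 to 1.49). TAGLN was at 1.05 scaled counts in the mix against 1.87 in the single culture, with an interval that included 1 (0.561-fold, 0.258 to 1.17).

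Of the genes induced by TGF-β, 8 of 8 had a log2 ratio above 0 in both comparisons, as did 7098 of all 13979 genes in the tumors and 7011 of 13485 in the cultures. The medians were 0.50 and 0.71. This list too was chosen with earlier results of these data known, so these counts only describe it. Of all genes, 1.98% were past 2-fold higher in the tumors and 0.682% in the cultures, and of the 8, 2 were in each. In the tumors these were IL11 and PMEPA1, a feedback inhibitor gene of the pathway, at 1129 against 437 scaled counts. In the cultures IL11 was at 72.5 scaled counts in the mix against 9.6 in the single (7.56-fold, 6.18 to 9.31).

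Immediate early genes are a class to which CYR61 also belongs and which tissue dissociation induces. In the tumors 12 were measured and 7 were above 0 (median 0.20). None was past 2-fold higher and 2 were lower, where 1.98% and 2.55% of all genes were. The 2 were FOS at 29 against 108 scaled counts and EGR1 at 7.29 against 20.6. In the cultures, both of which were sorted, 11 of 12 were above 0 and 4 were past 2-fold higher, against 0.682% of all genes (median 0.87): EGR1, NR4A1, DUSP1 and FOS. CYR61 was higher in both comparisons. The part of dissociation or sorting in the culture values was not tested.

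Among the genes of surface proteins that bind CCN proteins, 10 were measured in the tumors (median -0.02). Only the integrin gene ITGAV was past 2-fold higher, at 496 against 241 scaled counts, and none was past 2-fold lower. Of all genes, 1.98% were higher and 2.55% lower there. Of 9 in the cultures none was past 2-fold (median -0.12), where 0.682% of all genes were higher and 1.74% lower. ITGA5 and LRP1 were lower in the acinar tumor within 2-fold, at 0.578-fold (0.489 to 0.683) and 0.62-fold (0.545 to 0.703). Across the settings, 2 of the 10 had both tumors past 2-fold above both cultures, against 9.67% of all 14561 genes, and 4 the reverse, against 8.22%. The syndecan gene SDC4 was at 304 scaled counts in the acinar and 177 in the solid tumor, and at 72.3 in both cultures. ITGB3, the partner of ITGAV in a classical CYR61 and CTGF receptor, was at 1.12 and 0.465 scaled counts in the solid and acinar tumors but 114 and 76.6 in the single and mix cultures. ITGB5, another partner of ITGAV, was at 307 to 570 scaled counts throughout.

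**Figure D5:**
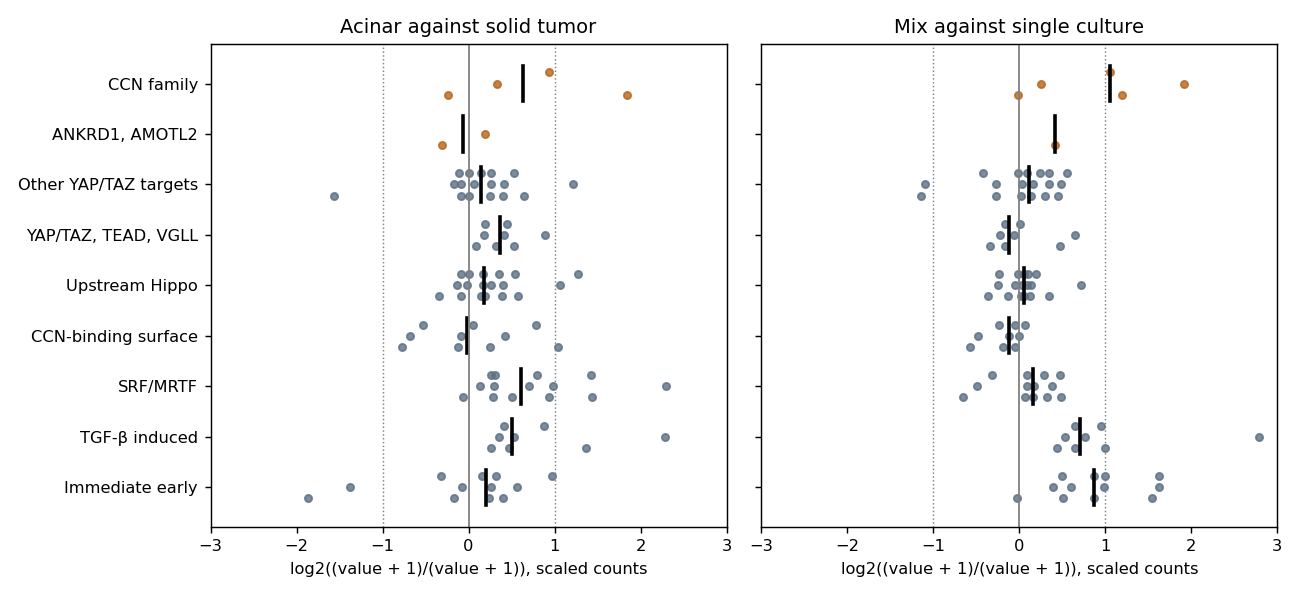
log2 ratios of the measured genes of 9 lists in both comparisons (each point a gene, CCN family and the other 2 members in orange; vertical spread within a row only separates points; black bars are medians; dotted lines mark 2-fold). The CCN median is 0.64 in the tumors and 1.06 in the cultures, while other YAP/TAZ targets have medians of 0.14 and 0.11.

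The genes with the pattern most like that of each member were found by the distance between log2(value + 1) profiles centred on their mean over the 4 libraries, among the 12137 genes that reached 5 scaled counts in some library. With only 4 points a likeness is a description. Among the nearest to CYR61 were PXDN (distance 0.353), BEAN1, P4HA3 and GFPT2. PXDN was at 3.5, 8.99, 9.6 and 19.2 scaled counts in the solid tumor, acinar tumor, single culture and mix culture. Nearest to CTGF were COL16A1 (0.223), SPHK1, TNFRSF12A, HAPLN3 and PGM2L1, with COL16A1 at 6.71, 26.5, 2.22 and 5.15 scaled counts in that order. CTGF and CYR61 themselves lay 2.47 apart, further than either lay from AMOTL2 (1.63 and 1.54). The profiles were not brought to a common spread and AMOTL2 varied little, so its smaller distances do not show a shared pattern.

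Nearest to WISP2 were ANO9 (0.0805), TRAF5, ATP10A, DENND3 and RASEF. Nearest to AMOTL2 were NDUFAF2 (0.0396), CDK5, SIAH2, MARVELD1 and C19orf43. WISP1 had TRIM6-TRIM34 (0.252), KCNJ6, OLFML3, GCOM1 and PADI3 nearest, of which TRIM6-TRIM34 and GCOM1 had fractional values in some library and are uncertain. KCNJ6 was at 0.280, 0.155, 2.76 and 10.1 scaled counts in the solid tumor, acinar tumor, single culture and mix culture.

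Epithelial markers fitted A549 cells in every library, KRT8 being at 2451 to 4507 scaled counts, although EPCAM was at only 2.31 and 2.09 in the single and mix cultures. Between the cultures, 3 of the 6 epithelial markers had a log2 ratio above 0 and 3 below. KRT19 was past 2-fold lower in the mix than in the single culture, as were 1.74% of all genes. It was at 15.1 against 33.4 scaled counts (0.453-fold, 0.378 to 0.541). The fibroblast markers summed to 73.1 scaled counts in the solid and 107 in the acinar tumor, beside the higher CTGF there. Of the 5 measured, LUM (19.6 and 55.4) and FAP (0.420 and 2.17) were past 2-fold higher in the acinar tumor, against 1.98% of all genes. COL1A1 (32.3 and 30.7), SPARC (19 and 18.5) and COL3A1 (1.12 and 0.31) were not higher there, and the list's median log2 ratio was -0.04. PDGFRA, THY1, POSTN and COL6A3 had 0 fragments in both tumors. Endothelial markers summed to 34.9 to 68.9 scaled counts, nearly all of it EGFL7, with VWF, CDH5, KDR and TEK at 0.465 or less in every library. Leukocyte markers summed to 236, 145, 49.1 and 43.6 in the solid tumor, acinar tumor, single culture and mix culture. Most of it was CD68 (175, 113, 29.5 and 26.8), with PTPRC at 1.40 or less. In the acinar against the solid tumor CD14 (2.64 and 9.65) and LYZ (23.9 and 49.4) were past 2-fold lower. CD79A (2.95 and 0.699) was past 2-fold higher. Of all genes, 2.55% were lower and 1.98% higher. The xenograft hosts are mice and the values stand under human symbols, so these levels do not show how much host tissue was present, and its part in the tumor values was not tested.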

How the data were processed

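The authors deposited 1 table of 26255 gene symbols with a signal per library, called a raw signal in the file header. Cuffdiff 2.2.1, SAMtools 1.0, TopHat2 2.0.13, Bowtie2 2.2.3 and the build hg19 are listed, without roles, per the submitters' processing notes. No source used here gives the annotation, filters or strand. From 90.0% to 91.2% of the non-zero values fell within 0.05 of a whole multiple of a library's own step, taken as 1 fragment: 1.25, 1.39, 0.795 and 0.720 in the solid tumor, acinar tumor, single culture and mix culture. As not all values were whole, no count model was fitted. Values were divided by a common constant, 8.94. Fold intervals are exact conditional binomial, levels exact Poisson, shares Clopper-Pearson. All cover counting error only, since there is 1 library per group. Without molecular identifiers 2 fragments can be copies of 1 molecule, so even the counting error may be understated. The ratio step was tested on simulated data. Named were all members, the TEAD-binding genes, up to 5 genes past 2-fold per list, and the 5 nearest patterns per member at 5 scaled counts or more. One gene that this rule names is not reported here. Other list genes named (LATS1, LATS2, AXL, NT5E, SDC4, ITGA5, ITGB3, ITGB5, LRP1, SRF, MKL1, MKL2 and the markers) were chosen after their values were seen. Members and the 15 lists, 5 of them markers, were chosen with earlier results of these data known. The 8 alternatives were pseudocounts of 0.1 and 5, 2 filters, 3 rescalings and whole-fragment genes only. Computation used Python 3.11.15, numpy 2.4.6, pandas 2.3.3 and scipy 1.17.1.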

Additional observations from a re-analysis of the deposited data

Results flagged for a closer look

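Among the genes of the lists, FOS and EGR1 were past 2-fold in opposite directions in the 2 comparisons. FOS had a log2 ratio of -1.87 for acinar against solid tumor and 1.0 for mix against single culture, and EGR1 had -1.38 and 1.62. The difference between the comparisons was not tested, since each group is 1 library. No member was past 2-fold in opposite directions.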

How the results depend on the processing

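All 93 log2 ratios of members recomputed under the 8 alternatives kept their direction where past 2-fold, and 1 moved beyond its counting interval: WISP1 in the cultures, 1.15 with a pseudocount of 5. With a pseudocount of 0.1, CYR61 joined CTGF past 2-fold in the tumors (2 members higher), ANKRD1 joined WISP2 as higher in both tumors than in both cultures (2 members), and the counts of all genes were 478 higher and 692 lower in the acinar tumor and 192 and 522 in the mix culture. With a pseudocount of 5, CTGF in the cultures was at 0.87 and no longer past 2-fold, which left 2 members higher there. The counts of all genes then were 114 and 101 in the tumors and 33 and 73 in the cultures. Both tumors were higher for 864 genes and both cultures for 774. Of the members, 0 had both cultures higher, as WISP1 dropped out. By its formula, a larger pseudocount shrinks the log2 ratios of low genes. With a filter of 5 scaled counts 203 genes were lower in the acinar tumor. Rescaling by median of ratios, totals or upper quartile moved no count by over 1.5 times. Leaving out a replicate was not possible with 1 library per group. Depth limits NOV, WISP3 and ANKRD1, at 22 fragments or fewer in every library.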
